A study of Homo sapiens with 4 samples.

Results

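The amino acid transporter genes of the Jurkat line, a human T-cell leukemia line in long use, were described from RNA-seq of 4 libraries. Members were taken by gene name. They were the genes of the SLC1, SLC6, SLC7, SLC36, SLC38 and SLC43 families and SLC3A1 and SLC3A2, which made up 59 of the 50868 genes listed. The rule takes whole families, so it also holds carriers of other cargo, among them SLC6A8 (creatine), SLC6A6 (taurine), SLC43A3 (purine nucleobases) and the monoamine transporters SLC6A2, SLC6A3 and SLC6A4. Cells were cultured for 24 h with DMSO, the solvent control, or with 0.5 μM JQ1, each without PHA and each with 150 ng/ml PHA. All cells were wild type, and each condition (DMSO, JQ1, DMSO + PHA and JQ1 + PHA) was 1 library. JQ1 blocks the BET bromodomain proteins, which read acetylated histones, and PHA is a plant lectin that crosslinks T-cell surface receptors and activates the cells. The question behind the RNA-seq was how BET inhibition acts on PD-1, an inhibitory receptor of T cells. With a single library each, no test between conditions was run, and no value below has been checked in a replicate.

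Amino acids cross cell membranes mainly through such carriers. Activated and leukemic T cells import large amounts of leucine, glutamine, arginine and cystine for protein synthesis, nucleotide synthesis, redox control and the signal to mTORC1, the kinase complex that senses amino acids at the lysosome. The carriers are of several kinds. Heteromeric exchangers pair a light chain of the SLC7 family with the heavy chain SLC3A2 (CD98), CAT proteins carry arginine and lysine without a partner, SLC1 carriers of glutamate or of neutral amino acids and most SLC38 carriers depend on sodium, and SLC36 carriers use protons.

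Total counts lay between 18620954 and 19685401 per library, so that 3 counts, the floor used here, were 0.152 to 0.161 CPM (counts at one common depth). FPKM, fragments scaled to gene length and to library depth, is the deposited level per gene length, and a gene was called at least 2-fold higher or lower from the log2 ratio of FPKM after 0.1 was added. Calls were made in the 11503 genes whose FPKM averaged at least 1 across libraries. Single genes are also given as the log2 ratio of their shares of the library's counts, with a 95% exact (Clopper-Pearson) interval, and these intervals cover counting error only. The T-cell markers all passed the filter (12 of 12), with summed FPKM of 927 with DMSO and 700 with JQ1 in the absence of PHA, and 1049 and 774 in its presence. Of these 12 markers, 4 were lower with JQ1 without PHA (CD5, CD2, LCK and CD3E) and 7 with PHA, where 8.65% and 8% of all genes were. Of the B-cell markers described here, CD79A was at 7.48, 1.06, 6.33 and 1.01 FPKM in the same order, and MS4A1 and PAX5 were at or under 3 counts in every library. Myeloid, erythroid and fibroblast markers summed to at most 0.155, 0.148 and 0.675 FPKM, and epithelial markers had no count. The part of the marker genes in the results was not tested. HEXIM1, which BET inhibitors are known to raise, stood at 36.2 FPKM with DMSO and 109 with JQ1 in the absence of PHA, and 34.6 and 104 in its presence.

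The RefSeq promoter windows (GRCh38.p14, 250 bases before to 50 bases after a transcript start) of 4 members are shown because SLC7A5 and SLC7A1 were the most abundant members, by mean FPKM, that were lower with JQ1 both without and with PHA, SLC38A5 had the largest fall, and SLC38A2 was the most abundant member that was higher without PHA. They are written 5′ to 3′ on the strand of the gene. The windows are those of SLC7A5 (chr16:87869458-87869757, minus strand), SLC7A1 (chr13:29595639-29595938, minus strand), SLC38A5 (chrX:48470211-48470510, minus strand) and SLC38A2 (chr12:46372724-46373023, minus strand). Capitals mark exact matches, on either strand, to the E-box CACGTG bound by MYC and related factors and to the antioxidant response core TGACNNNGC bound by NRF2.
SLC7A5: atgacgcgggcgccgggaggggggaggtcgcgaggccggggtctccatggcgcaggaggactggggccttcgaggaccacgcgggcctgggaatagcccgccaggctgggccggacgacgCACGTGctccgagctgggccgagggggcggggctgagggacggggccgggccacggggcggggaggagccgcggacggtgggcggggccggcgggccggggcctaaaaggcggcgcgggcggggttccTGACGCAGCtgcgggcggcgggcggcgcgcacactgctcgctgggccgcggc
SLC7A1: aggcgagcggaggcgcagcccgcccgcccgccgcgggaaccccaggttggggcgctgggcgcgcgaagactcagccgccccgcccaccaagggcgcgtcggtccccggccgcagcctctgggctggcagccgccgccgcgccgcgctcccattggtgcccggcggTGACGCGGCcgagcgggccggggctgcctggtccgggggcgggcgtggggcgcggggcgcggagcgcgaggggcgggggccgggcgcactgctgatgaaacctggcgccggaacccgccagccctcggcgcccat
SLC38A5: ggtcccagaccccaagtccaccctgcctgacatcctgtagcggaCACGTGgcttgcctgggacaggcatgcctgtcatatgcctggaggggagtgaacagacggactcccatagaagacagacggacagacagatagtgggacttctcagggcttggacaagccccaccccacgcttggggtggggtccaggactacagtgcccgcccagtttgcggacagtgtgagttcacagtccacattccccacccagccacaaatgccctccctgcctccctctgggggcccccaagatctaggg
SLC38A2: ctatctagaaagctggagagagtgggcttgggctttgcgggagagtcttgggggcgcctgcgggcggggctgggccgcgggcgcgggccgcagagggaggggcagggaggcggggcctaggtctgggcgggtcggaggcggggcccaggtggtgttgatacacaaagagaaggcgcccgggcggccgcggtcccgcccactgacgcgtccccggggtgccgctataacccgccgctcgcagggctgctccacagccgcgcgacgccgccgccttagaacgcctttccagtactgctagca
The SLC7A5 window held an E-box whose first base lay at -130 from the start and an antioxidant response core at -2. In SLC7A1 the core lay at -85 and no E-box was found, in SLC38A5 an E-box lay at -206, and the SLC38A2 window held none of the motifs. No base of an E-box match was shared with the core in these windows. A further motif, the C/EBP-ATF element TGATGCAA through which ATF4 acts, was in none of the windows shown. A match says only that the letters are present.

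Most of these genes had few counts or none, which at this depth allows a level of up to 0.152 to 0.161 CPM for a gene without a count. With a mean FPKM of at least 1 there were 15 members, a further 11 reached 20 counts in a library, 3 had between 4 and 19 counts at most (SLC6A13, SLC6A19 and SLC6A16), 10 had 1 to 3 counts at most and 20 had no count. The 20 without a count included the glycine transporter SLC6A5, the neuronal carriers SLC6A17, SLC6A7 and SLC7A10, the dopamine and noradrenaline transporters SLC6A3 and SLC6A2, and SLC38A4. Those with 1 to 3 counts at most included the glutamate transporters SLC1A1, SLC1A2 and SLC1A3 and the other heavy chain, SLC3A1. SLC7 and SLC38 each gave 4 of the 15 members above the filter, SLC1 and SLC36 each gave 2, and SLC3, SLC6 and SLC43 each gave 1. The SLC6 family of 19 genes thus gave only SLC6A6 above the filter, and 8 of its genes had no count.

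**Figure D1:**
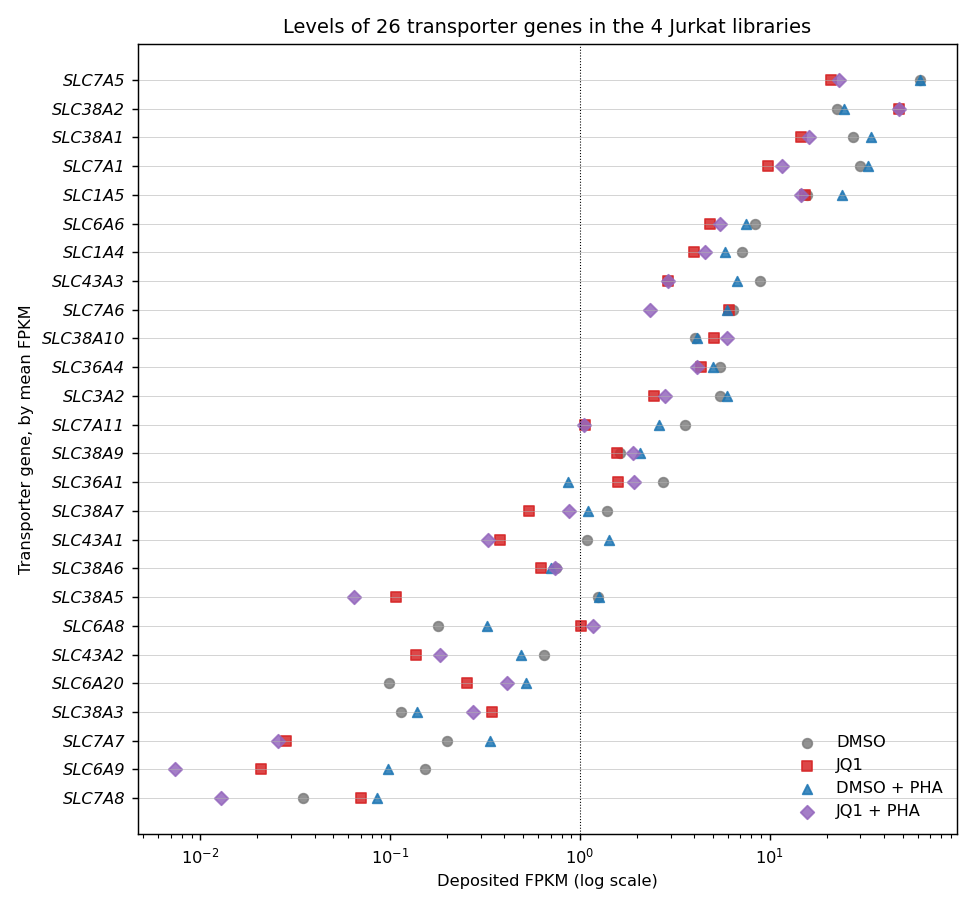
Deposited FPKM (log axis) of the 26 transporter genes with at least 20 counts in a library, 1 row per gene in order of mean FPKM, with 1 point for each of the 4 libraries. SLC7A5 leads with DMSO at 61.9 FPKM and SLC38A2 leads with JQ1 at 47.9 FPKM; the dotted line marks 1 FPKM.

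Levels per deposited length put SLC7A5 first with DMSO (61.9 FPKM), followed by SLC7A1 (29.9), SLC38A1 (27.4), SLC38A2 (22.5) and SLC1A5 (15.6). With JQ1 the order was SLC38A2 (47.9 FPKM), SLC7A5 (21.1), SLC1A5 (15.3), SLC38A1 (14.6) and SLC7A1 (9.79). The gene length behind the deposited FPKM was longer than the summed GENCODE release 44 exons in 26 of 26 members, and 1.02 to 7.80 times the canonical transcript, with a median of 2.28. The largest excess was that of SLC3A2, at an implied 14700 bases against 1885 bases of its canonical transcript. Ratios between libraries do not depend on that length, whereas the order of genes does. Per kilobase of the canonical transcript, SLC38A2 was second with DMSO and first in the other libraries, and SLC3A2 moved from between the 8th and the 12th place to the 4th or 5th.

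Without PHA, JQ1 treatment came with lower levels of the carriers SLC7A5 (leucine), SLC7A1 (arginine), SLC7A11 (cystine) and SLC43A3 (nucleobases) and a higher level of SLC38A2. Among the 15 members above the filter, 5 had levels at least 2-fold lower with JQ1 than with DMSO (SLC7A5, SLC7A1, SLC43A3, SLC3A2 and SLC7A11), against 8.65% of all 11503 genes, and 1 was higher (SLC38A2), against 5.22%. The counting interval excluded 0 for 12 of the 15 (80%), against 75.6% of all genes, and such intervals narrow as counts grow. The median log2 FPKM ratio was -0.77 over the 15 members and -0.012 over all genes. With PHA, 7 of the 15 were lower with JQ1, namely the same 5 and SLC38A1 and SLC7A6, against 8% of all genes, and 1 was higher (SLC36A1), against 3.69%. The interval excluded 0 for 14 of the 15 members (93.3%), against 72.9% of all genes, and the medians were -0.72 and -0.021. With 1 FPKM added in place of 0.1, SLC43A3, SLC3A2, SLC7A11 and SLC36A1 were no longer called with PHA, nor SLC3A2 without PHA. In bulk RNA, fewer cells of a type and less RNA per cell cannot be told apart.

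**Figure D2:**
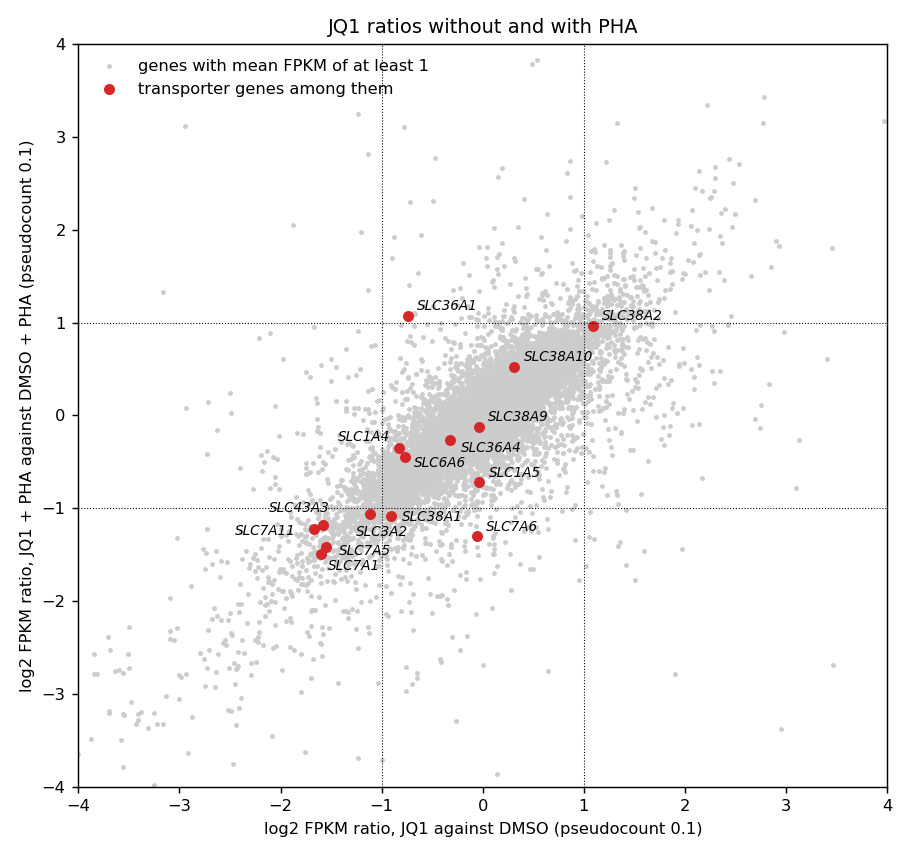
Log2 FPKM ratio of JQ1 to DMSO without PHA (horizontal) and with PHA (vertical) for the 11503 genes averaging at least 1 FPKM in grey and the 15 transporter genes among them in red; 46 genes and no transporter lie outside the axes. SLC7A5, SLC7A1, SLC43A3, SLC3A2 and SLC7A11 lie past -1 on both axes, and SLC36A1 and SLC7A6 lie away from the diagonal.

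Among the heteromeric exchangers, SLC7A5 (ENSG00000103257, chr16:87830023-87869488), the light chain LAT1 that imports leucine and other large neutral amino acids, had 6043 counts with DMSO and 2154 with JQ1 in the absence of PHA, and 6325 and 2227 in its presence. In FPKM this was 61.9, 21.1, 61.9 and 23.0. Both JQ1 libraries were low, and the PHA ratio in DMSO-treated cells was 0.00 (interval -0.05 to 0.05). SLC7A5 was 2.93-fold lower with JQ1 without PHA (log2 share ratio -1.55, interval -1.62 to -1.48) and 2.69-fold lower with PHA (-1.43, interval -1.50 to -1.36). Adding the counts of the copies SLC7A5P1 and SLC7A5P2, each at 12 counts or fewer in every library, left both log2 ratios within their intervals.

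The heavy chain SLC3A2 (ENSG00000168003, chr11:62856102-62888875), which carries these light chains to the cell surface, stood at 5.44, 2.46, 5.96 and 2.81 FPKM in the order DMSO, JQ1, DMSO + PHA and JQ1 + PHA, from 1505, 713, 1725 and 768 counts. It was low in both JQ1 libraries, by 2.21-fold without PHA (log2 share ratio -1.14, interval -1.27 to -1.01) and by 2.12-fold with PHA (-1.09, interval -1.21 to -0.96). The summed FPKM of its light chains exceeded that of SLC3A2 by 13.2-fold with DMSO and 11.5-fold with JQ1 in the absence of PHA, and 11.9-fold and 9.44-fold in its presence. Per kilobase of the canonical transcript, a scale chosen after the lengths had been seen, the same ratios were 2.25, 2.32, 2.02 and 1.59. SLC7A5 made up 85.9%, 74.4%, 87.4% and 87.0% of the light-chain FPKM in the order of the libraries, and 74.0%, 53.9%, 75.0% and 75.4% per kilobase of the canonical transcript.

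SLC7A11 (ENSG00000151012, chr4:138164097-138242349), the light chain xCT that exchanges cystine for glutamate and so feeds glutathione synthesis, had 665 counts with DMSO and 206 with JQ1, and 504 with DMSO + PHA and 193 with JQ1 + PHA. In FPKM this was 3.58, 1.06, 2.60 and 1.05. It was 3.38-fold lower with JQ1 without PHA (log2 share ratio -1.76, interval -1.99 to -1.53) and 2.47-fold lower with PHA (-1.30, interval -1.55 to -1.06).

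The other light chains behaved differently from each other. SLC7A6 (ENSG00000103064, chr16:68264516-68301823), the chain y+LAT2 that exchanges arginine for glutamine, had 2329, 2340, 2270 and 849 counts, with 6.37, 6.12, 5.93 and 2.35 FPKM. Only the JQ1 + PHA library was low. JQ1 against DMSO gave a log2 share ratio of -0.06 (interval -0.14 to 0.03) without PHA and -1.34 (interval -1.45 to -1.22) with PHA. SLC7A6OS, which overlaps SLC7A6 on the opposite strand over 17321 bp, had 776, 1116, 813 and 978 counts and was not low in that library. The strand setting of the counting is not given in the sources used here, so reads of the overlap cannot be assigned to one gene. With the counts of both genes added, an alternative chosen after the data were seen, the log2 ratio with PHA was -0.67 and that without PHA 0.09.

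SLC7A7, the related chain y+LAT1, was far less abundant, with 47 counts with DMSO and 7 with JQ1 in the absence of PHA, and 83 and 6 in its presence. Both JQ1 libraries were low, with log2 share ratios of -2.81 (interval -4.20 to -1.66) and -3.71 (interval -5.20 to -2.53). SLC7A8, the chain LAT2, had 11, 23, 28 and 4 counts, so that its ratio was 0.999 (interval -0.10 to 2.18) without PHA and -2.73 (interval -4.70 to -1.21) with PHA. SLC7A7 and SLC7A8 lie 295474 bp apart on chromosome 14.

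SLC7A1 (ENSG00000139514, chr13:29509410-29595688), the arginine and lysine carrier CAT1, had 4665, 1600, 5386 and 1800 counts in the order of the libraries, and 29.9, 9.79, 33.0 and 11.6 FPKM. As for SLC7A5, both JQ1 libraries were low and both libraries without JQ1 were high. It was 3.05-fold lower without PHA (log2 share ratio -1.61, interval -1.69 to -1.53) and 2.83-fold lower with PHA (-1.50, interval -1.58 to -1.42). The difference between these log2 ratios, with PHA minus without, was 0.11, with an interval of -0.005 to 0.22. The other CAT genes, SLC7A2, SLC7A3, SLC7A4 and SLC7A14, had 3 counts or fewer in every library.

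**Figure D3:**
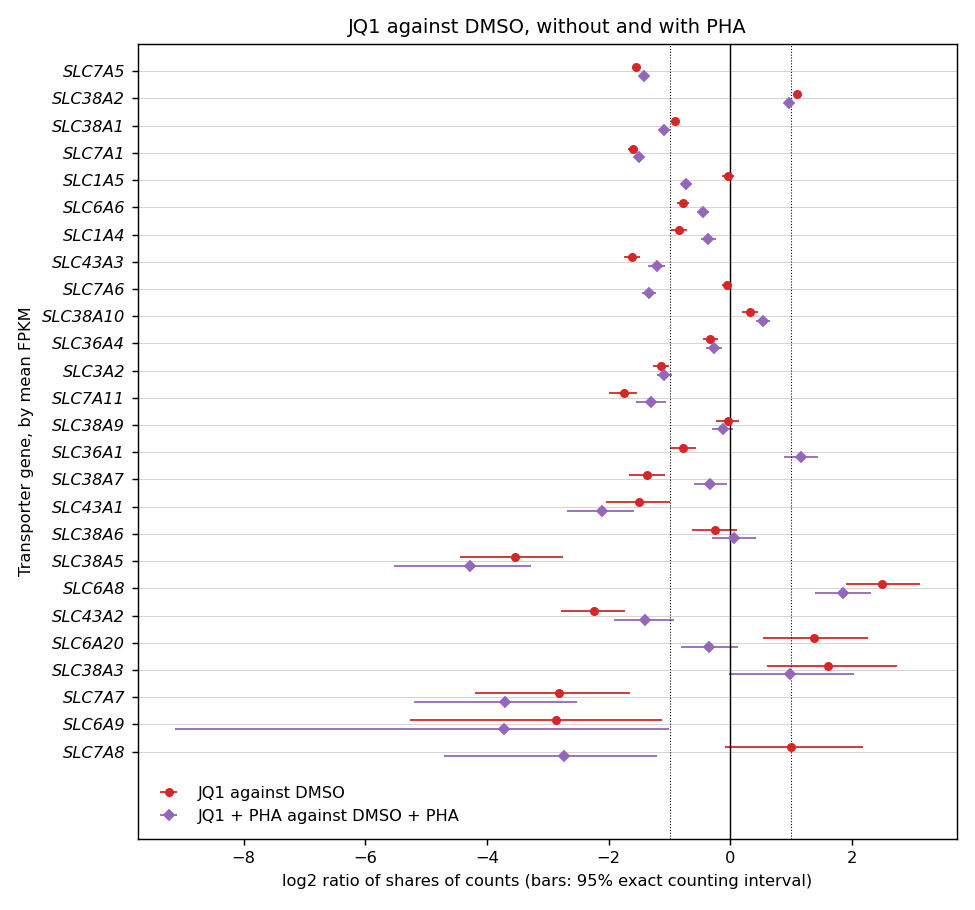
Log2 ratio of shares of counts, JQ1 to DMSO, for 26 transporter genes in order of mean FPKM, without PHA (red circles) and with PHA (purple diamonds); bars are 95% exact counting intervals and dotted lines mark 2-fold. SLC38A5 lies farthest below 0 without PHA, at -3.54, and SLC6A8 farthest above, at 2.49.

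The sodium-coupled SLC38 carriers moved in both directions. SLC38A2 (ENSG00000134294, chr12:46358189-46372867), the system A carrier SNAT2 known to adapt to amino acid supply, had 5942 counts with DMSO and 13261 with JQ1, and 6805 with DMSO + PHA and 12588 with JQ1 + PHA. Both JQ1 libraries were high, at 47.9 and 48.1 FPKM against 22.5 and 24.6. The log2 share ratio was 1.09 (interval 1.05 to 1.14) without PHA and 0.97 (interval 0.92 to 1.01) with PHA. By the deposited FPKM it was 2.13-fold higher without PHA and 1.96-fold higher with PHA, short of a 2-fold line that it passed under both alternative scalings of the counts (size factors of DESeq2, TMM of edgeR). SLC38A2 took 14.8% of all transporter counts with DMSO and 40.6% with JQ1 in the absence of PHA, and 15.3% and 40.4% in its presence.

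SLC38A1 (ENSG00000111371, chr12:46183063-46270017), the related glutamine carrier SNAT1, went the other way, with 7496, 4176, 9750 and 4335 counts and 27.4, 14.6, 34.1 and 16.0 FPKM. Its log2 share ratio was -0.91 (interval -0.96 to -0.85) without PHA, short of 2-fold, and -1.09 (interval -1.14 to -1.04) with PHA. SLC38A1 and SLC38A2 lie 88171 bp apart on the minus strand of chromosome 12. The FPKM of SLC38A2 was 0.819 times that of SLC38A1 with DMSO and 3.28 times with JQ1 in the absence of PHA, and 0.721 times and 2.999 times in its presence. Per kilobase of the canonical transcript SLC38A2 was the higher of both genes in every library, at 1.34, 5.36, 1.18 and 4.90 times SLC38A1.

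SLC38A5 (ENSG00000017483, chrX:48458537-48470256), the carrier SNAT5 of glutamine, asparagine and serine, had the largest fall of the 26 members with at least 20 counts in a library, by fold of FPKM in each JQ1 comparison among those with more than 3 counts. It had 156 counts with DMSO and 14 with JQ1 in the absence of PHA, and 165 and 8 in its presence, and 1.25, 0.107, 1.26 and 0.0646 FPKM. It was 11.7-fold lower without PHA (log2 share ratio -3.54, interval -4.45 to -2.75) and 19.5-fold lower with PHA (-4.29, interval -5.52 to -3.27). Its mean FPKM was under the filter of 1, so it is in none of the counts over 15 members.

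Of the lysosomal SLC38 proteins, SLC38A7 differed more with JQ1 than SLC38A9 did in the absence of PHA. SLC38A9, the arginine sensor of mTORC1 at the lysosome, had 1.62, 1.57, 2.07 and 1.89 FPKM, and both JQ1 intervals included 0. SLC38A7, a lysosomal glutamine carrier, had 332 counts with DMSO and 135 with JQ1 in the absence of PHA, and 275 and 207 in its presence. Its log2 share ratio was -1.36 (interval -1.66 to -1.07) without PHA and -0.33 (interval -0.60 to -0.06) with PHA.

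SLC38A10 stood at 4.05, 5.06, 4.12 and 5.96 FPKM, and the log2 share ratio was 0.32 (interval 0.19 to 0.45) without PHA and 0.53 (interval 0.41 to 0.65) with PHA. SLC38A6 had 135, 118, 134 and 132 counts, and both JQ1 intervals included 0. SLC38A3, the glutamine carrier SNAT3, had 11, 35, 14 and 26 counts, with a ratio of 1.61 (interval 0.59 to 2.73) without PHA and 0.97 (interval -0.02 to 2.02) with PHA. SLC38A10 did not reach 2-fold, and the other pair lie under the filter. TRMT5, which overlaps SLC38A6 by 245 bp on the opposite strand, had 1191, 621, 1048 and 561 counts.

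The neutral carriers of the SLC1 family were not called at 2-fold in any comparison. SLC1A5 (ENSG00000105281, chr19:46774883-46788594), the glutamine carrier ASCT2, had 1638 counts with DMSO and 1674 with JQ1 in the absence of PHA, and 2641 and 1514 in its presence, and 15.6, 15.3, 24.1 and 14.6 FPKM. The DMSO + PHA library was high and the other libraries were close together. The log2 share ratio of DMSO + PHA to DMSO was 0.62 (interval 0.53 to 0.71), that for JQ1 without PHA was -0.03 (interval -0.13 to 0.07), and that for JQ1 with PHA was -0.72 (interval -0.81 to -0.63). SLC1A4, the alanine and serine carrier ASCT1, had 7.17, 3.99, 5.82 and 4.53 FPKM, with log2 share ratios of -0.84 (interval -0.97 to -0.72) and -0.36 (interval -0.49 to -0.24) in the JQ1 comparisons.

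The SLC43 genes were all lower with JQ1. SLC43A3 (ENSG00000134802, chr11:57406954-57427580), the purine nucleobase carrier, had 1904, 652, 1506 and 616 counts and 8.87, 2.90, 6.70 and 2.90 FPKM, and both JQ1 libraries were low. An overlapping gene on the same strand, RP11-872D17.8, had at most 27 counts. SLC43A3 was 3.05-fold lower without PHA (log2 share ratio -1.61, interval -1.74 to -1.48) and 2.31-fold lower with PHA (-1.21, interval -1.35 to -1.07). SLC43A1, the leucine carrier LAT3, which lies 56953 bp from SLC43A3, had 117 counts with DMSO and 43 with JQ1 in the absence of PHA, and 160 and 35 in its presence. Its log2 share ratios were -1.51 (interval -2.05 to -0.99) and -2.11 (interval -2.68 to -1.58). SLC43A2, the related carrier LAT4, had 172, 38, 135 and 48 counts, with ratios of -2.24 (interval -2.79 to -1.73) and -1.41 (interval -1.92 to -0.93).

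The proton-coupled SLC36A1 (ENSG00000123643, chr5:151437046-151492381), or PAT1, a carrier of small amino acids at the lysosome and the cell surface, had 474 counts with DMSO and 290 with JQ1 in the absence of PHA, and 157 and 332 in its presence. In FPKM this was 2.72, 1.59, 0.863 and 1.93, and only the DMSO + PHA library was under 1 FPKM. The JQ1 ratio was -0.77 (interval -0.99 to -0.56, log2 of shares) without PHA and 1.16 (interval 0.88 to 1.44) with PHA. SLC36A4, or PAT4, stood at 5.46, 4.34, 4.99 and 4.15 FPKM, with ratios of -0.33 (interval -0.45 to -0.21) and -0.27 (interval -0.39 to -0.14).

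In the SLC6 family, the taurine carrier SLC6A6 (ENSG00000131389, chr3:14402576-14489349) had 8.35, 4.86, 7.45 and 5.45 FPKM and did not reach 2-fold, with JQ1 ratios of -0.78 (interval -0.88 to -0.68) and -0.45 (interval -0.55 to -0.36). The creatine carrier SLC6A8 (ENSG00000130821, chrX:153688099-153696593) had 28 counts with DMSO and 164 with JQ1 in the absence of PHA, and 53 and 180 in its presence. Both JQ1 libraries were high. It was 5.60-fold higher without PHA (log2 share ratio 2.49, interval 1.90 to 3.12) and 3.59-fold higher with PHA (1.84, interval 1.39 to 2.31).

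SLC6A20, a proline carrier, had 17, 46, 94 and 70 counts and was lowest with DMSO. Its JQ1 ratio was 1.37 (interval 0.54 to 2.27) without PHA and -0.35 (interval -0.81 to 0.12) with PHA, a difference of -1.72 (interval -2.63 to -0.80). Its log2 share ratio of DMSO + PHA to DMSO was 2.40 (interval 1.65 to 3.24). SLC6A9, the glycine carrier GlyT1, had 21, 3, 14 and 1 counts. Its log2 share ratios were -2.87 (interval -5.26 to -1.13) without PHA and -3.73 (interval -9.13 to -1.01) with PHA. Computed against 3 counts in the JQ1 library, it was 7.32-fold lower without PHA and 4.41-fold lower with PHA, with counting error left aside. The log2 FPKM ratio of SLC6A9 with PHA was -0.88, short of 2-fold. CCDC24, which overlaps SLC6A9 on the opposite strand over 5029 bp, had 28, 21, 63 and 19 counts. Among the 11 members under the filter with at least 20 counts, 6 were past 2-fold lower and 2 higher with JQ1 without PHA, and 4 were lower and 1 higher with PHA. These members lie below the level at which the shares of all genes were computed, so no background is set beside them. They entered on 20 counts in any 1 library, SLC6A9 on 21 with DMSO, which favours genes high in a library. The counts of such members therefore describe single genes only.

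The summed counts of all 59 genes were 2132 CPM with DMSO and 1658 with JQ1 in the absence of PHA, and 2256 and 1672 in its presence, a log2 ratio of -0.36 (interval -0.38 to -0.34) without PHA and -0.43 (interval -0.45 to -0.41) with PHA. The SLC38 carriers were the only class of more than 10 CPM with a higher sum in both JQ1 libraries, at 820, 985, 950 and 1028 CPM, or 38.5%, 59.4%, 42.1% and 61.5% of the transporter counts. SLC38A2 alone took most of that class with JQ1. The CAT class summed to 248, 81.3, 274 and 96.8 CPM, the light chains to 483, 240, 468 and 176 CPM, and the SLC43 class to 117, 37.3, 91.5 and 37.5 CPM. The neutral SLC1 carriers were at 164, 128, 197 and 130 CPM, and the SLC36 carriers at 90.7, 66.8, 67.9 and 67.6 CPM. The heavy chains summed to 80.0, 36.2, 87.7 and 41.3 CPM, and the GABA, taurine, betaine and creatine carriers of SLC6 to 126, 80.8, 114 and 90.8 CPM. Counts are not per length, so these sums describe the composition of the reads and not the relative abundance of the proteins.

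**Figure D4:**
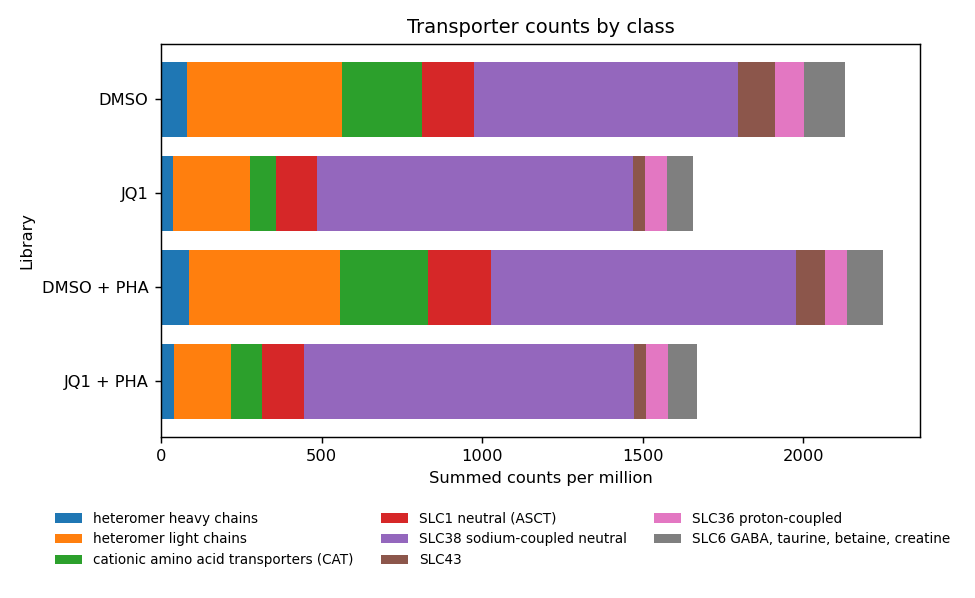
Summed counts (CPM) of the transporter genes by class in each of the 4 libraries; classes under 10 CPM in every library are left out. The SLC38 segment grows from 820 CPM with DMSO to 985 with JQ1, while the light-chain segment is 483 and 240 CPM and the CAT segment 248 and 81.3 CPM.

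Few of these genes differed by 2-fold with PHA. In DMSO-treated cells, no member above the filter was at least 2-fold higher with PHA, against 2.1% of all genes, and 1 was lower (SLC36A1), against 1.19%. The interval excluded 0 for 13 of the 15 (86.7%), against 49.8% of all genes, and the median log2 ratio was 0.00057 against -0.0063 over all genes. Counting intervals narrow as counts grow, so shares of this kind also follow the counts of the genes. SLC1A5 was the highest of the 15, at 0.62, followed by SLC38A9 at 0.33 and SLC38A1 at 0.31 on the scale of FPKM. In JQ1-treated cells, no member was higher with PHA, against 1.04% of all genes, and 1 was lower (SLC7A6), against 1.03%. There the interval excluded 0 for 10 of the 15 members (66.7%), against 31.4% of all genes, and the medians were 0.13 and -0.0022. CD69 and EGR1, which T-cell stimulation is known to induce, had 1.05 and 0.491 FPKM with DMSO and 20.4 and 39.9 FPKM with DMSO + PHA. In JQ1-treated cells they had 0.766 and 0.405 FPKM without PHA and 3.14 and 6.85 FPKM with it.

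**Figure D5:**
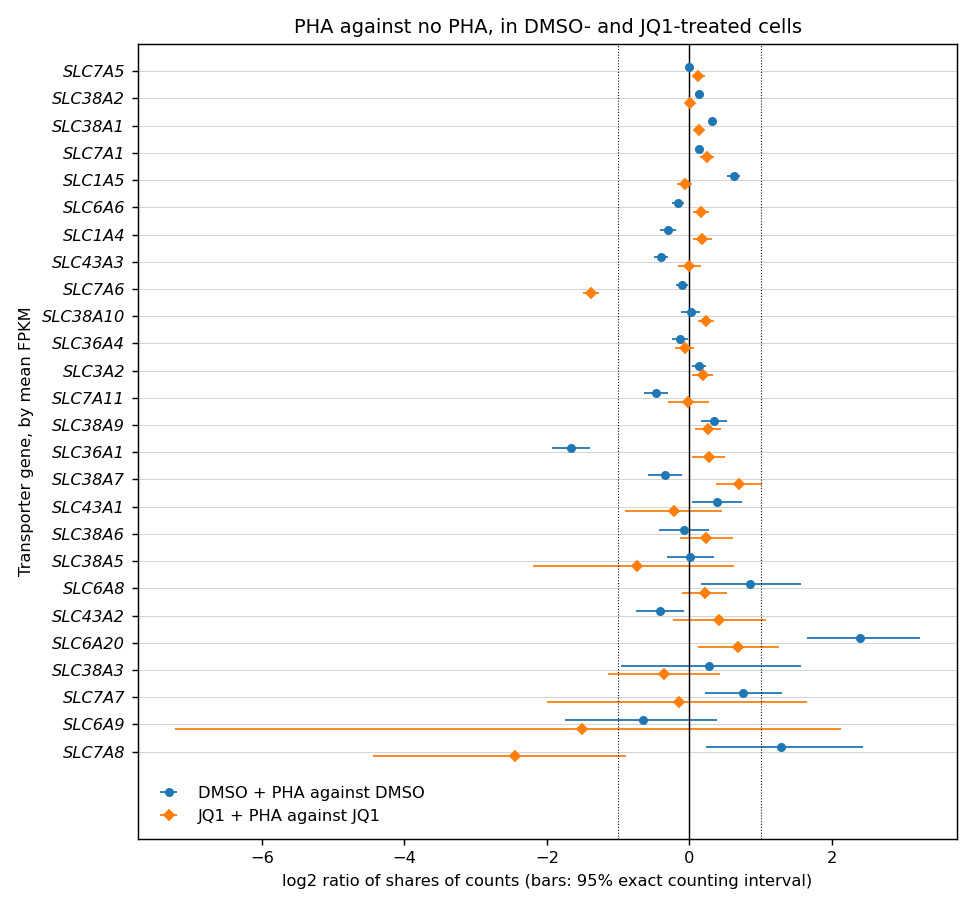
Log2 ratio of shares of counts with PHA to without PHA for 26 transporter genes in order of mean FPKM, in DMSO-treated cells (blue circles) and JQ1-treated cells (orange diamonds); bars are 95% exact counting intervals and dotted lines mark 2-fold. Among the 15 genes above the filter, SLC36A1 at -1.66 in DMSO-treated cells and SLC7A6 at -1.38 in JQ1-treated cells lie past 2-fold.

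The JQ1 ratios with and without PHA come from separate pairs of libraries and were set side by side for the 26 members with at least 20 counts. The ratio with PHA minus that without PHA had a Wald interval from the 4 counts above 0 for 9 members, below 0 for 6 and including 0 for 11. Over the 11481 genes above the filter for which it could be computed, 42.0% had an interval that excluded 0. Of the 26 members, 11 lie under that filter, so this share is no like background for them. The largest differences above the filter were those of SLC36A1, at 1.93 (interval 1.59 to 2.28), and SLC7A6, at -1.28 (interval -1.42 to -1.14), followed by SLC1A5, at -0.69 (interval -0.82 to -0.56). SLC36A1 was the 1 member whose ratios pointed in opposite directions with both intervals excluding 0, as 4.17% of those 11481 genes did. For SLC3A2 the difference was 0.06 (interval -0.12 to 0.23) and for SLC7A5 0.13 (interval 0.03 to 0.23).

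Of the 26 members with at least 20 counts, 22 had RefSeq promoter windows, 41 in all, and SLC6A6, SLC43A3, SLC7A11 and SLC38A3 had none. An E-box was found in 8 of the 41 windows, of 8 members (SLC7A5, SLC1A5, SLC36A1, SLC38A7, SLC43A1, SLC38A5, SLC7A7 and SLC7A8), and in 7.20% of all 34796 promoter windows. The antioxidant response core was in 6 of the 41 windows, of 6 members (SLC7A5, SLC7A1, SLC1A5, SLC7A6, SLC3A2 and SLC7A7) and in 13.3% of all windows. The C/EBP-ATF element was in 2 of the 41 windows, of SLC1A5 and SLC1A4, and in 0.871% of all windows. Some members had several windows, at different transcript starts. The E-box of SLC1A5, SLC36A1, SLC38A7, SLC43A1, SLC7A7 and SLC7A8 was in a single window each, and their other windows held none. The same held for the core in SLC1A5, SLC3A2 and SLC7A7 and for the C/EBP-ATF element in SLC1A5 and SLC1A4. Of the 8 members with an E-box, SLC7A5, SLC43A1, SLC38A5 and SLC7A7 were at least 2-fold lower with JQ1 in both comparisons. SLC38A7 was so without PHA only, and SLC1A5, SLC36A1 and SLC7A8 were so in neither. SLC7A1, SLC3A2 and SLC43A2, whose windows held no E-box, were also lower in both. Of all genes above the filter, 8.65% were lower without PHA and 8% with PHA. SLC43A1, SLC38A5, SLC7A7 and SLC43A2 lie under that filter. A link between the motif and the JQ1 ratios was not tested.

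Genes that make, sense or use amino acids were counted from lists beside the transporters. Of 17 enzymes of amino acid synthesis and turnover above the filter, 4 were lower with JQ1 without PHA and 3 with PHA, where 8.65% and 8% of all genes were, and none was higher. The medians over the list were -0.60 and -0.52, and those over all genes -0.012 and -0.021. BCAT1, which transaminates leucine and the other branched-chain amino acids, stood at 9.30, 0.700, 8.48 and 0.820 FPKM in the order of the libraries. PYCR1, of proline synthesis, had 3.80, 0.356, 2.89 and 0.463 FPKM, and PSAT1, of serine synthesis, had 82.4, 31.3, 66.6 and 28.8 FPKM. GOT2, the mitochondrial aspartate aminotransferase, had 36.1, 17.5, 31.7 and 18.3 FPKM and was called without PHA only.

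Among 31 genes of amino acid sensing and mTORC1, SESN3, a sestrin that restrains mTORC1, was higher with JQ1 in both comparisons, at 6.50, 28.05, 7.29 and 26.6 FPKM. LARS, the leucyl-tRNA synthetase, had 27.1, 13.3, 24.5 and 12.6 FPKM, and AKT1S1, a subunit of mTORC1, had 2.44, 1.04, 2.40 and 1.20 FPKM. Both were called lower without PHA and not with PHA, where their log2 FPKM ratios were each -0.95. The medians over that list were -0.11 and 0.016. Of 14 regulators, MYC was higher in both, at 0.629, 1.55, 0.918 and 2.72 FPKM, from 106, 273, 162 and 454 counts. Its mean of 1.45 FPKM was close to the filter, and its call was not repeated with the other pseudocount. TRIB3, a target of ATF4, was lower with PHA, at 3.20, 1.62, 3.68 and 1.08 FPKM. ATF4 itself had 123, 75.3, 104 and 69.4 FPKM and was not called. Of 8 genes of glutathione metabolism, SLC7A11 was the only one called, and of 4 amino acid carriers outside the families (MFSD12, SLC16A10, SLC15A4 and CTNS) none was. Those carriers had median log2 FPKM ratios of 0.52 without PHA and 0.43 with PHA, above 0 where the median of the 15 members was below it. No gene of these lists was called in either PHA comparison. Of all genes, 5.22% were higher and 8.65% lower with JQ1 without PHA, and 3.69% and 8% with PHA. Calls in the lists of this paragraph were few, and they describe single genes and not the lists.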

How the data were processed

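RNA-seq was done on 4 Jurkat libraries, 1 per condition, grouped by the labelled treatment. The authors extracted total RNA with TRIzol. The labels name a VAHTS Universal V6 library kit and the study's methods a stranded VAHTS kit, so strandedness is uncertain. Reads were aligned to GRCh38 with Hisat2 2.0.4, while the submitters' processing notes also name TopHat2 2.0.9 and Cufflinks 2.1.1 without a role. The program that counted reads, its strand setting and the annotation are not given in the sources used here. The deposited values are counts of reads per gene, without normalization, and the FPKM that the authors computed, in which a gene's count is divided by a gene length and the library's total count.

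From these, log2 ratios of FPKM + 0.1 with a 2-fold threshold were computed for genes averaging at least 1 FPKM, and exact intervals of the ratio of shares of counts for single genes. Depth was 18620954 to 19685401 counts per library. Folds against 3 counts or fewer were computed against 3 counts. JQ1 was compared with DMSO, without and with PHA, and PHA with no PHA, in DMSO- and in JQ1-treated cells. Every member averaging at least 1 FPKM, or with at least 20 counts in a library, was named with values. Up to 4 genes of each other list, those with the largest JQ1 ratio, could be named, with HEXIM1 and MYC. The genes CD69, EGR1, CD3E and ATF4, the other B-cell markers and genes overlapping members were named after their values were seen. Some marker genes and genes overlapping members are not reported here. The members and lists were chosen with earlier results of these data known. The steps were tested on simulated counts with counting error only and with changes larger than 2-fold in genes above the filter. The simulation held no variation between replicate libraries, so it says nothing about that error.

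Alternatives were centring on the median gene, another pseudocount, filter or fold threshold, edgeR TMM and DESeq2 size factors, and the addition of pseudogene counts. Adding the counts of SLC7A6OS and using canonical transcript lengths were chosen after the data were seen. Coordinates are those of the files (GRCh38), and 20 of the 59 members have the same start and end in GENCODE release 44. Promoter windows are from RefSeq (GRCh38.p14). Scaling factors came from DESeq2 1.42.0 and edgeR 4.0.16 in R 4.3.3, and all else from scipy 1.17.1, pandas 2.3.3, matplotlib 3.10.9 and numpy 2.4.6 in Python 3.11.15.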

Additional observations from a re-analysis of the deposited data

Results flagged for a closer look

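SLC36A1, the proton-coupled carrier PAT1, had JQ1 ratios in opposite directions without and with PHA. Of the 26 members compared it was the 1 with both intervals excluding 0, as 4.17% of the 11481 genes above the filter did. Of the 26 members, 11 lie under that filter, so this share is no like background for them. Nothing is concluded from it about the transporter genes as a set. SLC36A1 is given as a single gene. Its log2 share ratio of JQ1 to DMSO was -0.77 without PHA and 1.16 with PHA. Each value comes from 1 library per condition, and the difference was not tested. The DMSO + PHA library, with 157 counts, was the low one, against 290 to 474 counts in the other libraries.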

How the results depend on the processing

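No result changed its direction under any alternative where it had been called. With a pseudocount of 1 FPKM, the JQ1 + PHA against DMSO + PHA comparison gave 4 lower and 0 higher members, and DMSO + PHA against DMSO gave 0 lower: the calls of SLC43A3, SLC3A2, SLC7A11 and SLC36A1 with PHA, of SLC3A2 without PHA and of SLC36A1 for PHA were lost. With the filter at a mean FPKM of 0.1, 24 members passed, and JQ1 against DMSO gave 3 higher and 10 lower, JQ1 + PHA against DMSO + PHA 2 higher and 11 lower, and DMSO + PHA against DMSO 1 higher. With the filter at 5 FPKM, 9 members passed, and the counts were 3 lower in the first comparison, 0 higher in the second and 0 lower in the third, since fewer genes were tested. At 1.5-fold, 9 were lower without PHA, 2 higher with PHA and 1 higher for DMSO + PHA against DMSO. The shares of all genes given above are for the main setting. They are no background for the member counts at another filter or fold threshold. TMM scaling and DESeq2 scaling each gave 2 higher members with PHA, as SLC38A2 was gained, with log2 FPKM ratios of 1.01 and 1.02 in place of 0.96. Centring changed no call of the 15 members. The scalings turned the sign of 3 members that were not called: SLC7A5 for DMSO + PHA against DMSO, SLC1A5 for JQ1 against DMSO and SLC43A3 for JQ1 + PHA against JQ1. Per kilobase of the canonical transcript, the light-chain level over SLC3A2 was 2.25 (DMSO) and 2.32 (JQ1) without PHA and 2.02 and 1.59 with it, since the lengths differ, and the ratio of SLC38A2 to SLC38A1 turned from under to over 1 in both DMSO libraries. The addition of pseudogene counts left all 12 ratios within their intervals. Adding SLC7A6OS ended the 2-fold difference of SLC7A6 (-0.67 with PHA). The scalings moved the median of all genes by less than 0.1 on the log2 scale. Where no reason is given, the cause was not tested. Depth limits the members of fewest counts, such as SLC7A7, whose JQ1 interval ran from -4.20 to -1.66 without PHA. No paired analysis was possible within a comparison because each condition had 1 library, and a joint model of JQ1 and PHA over the 4 libraries was not fitted.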
